A study of Caenorhabditis elegans with 15 samples.

Results

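The regions described here are the trans-splicing acceptor sites of the Caenorhabditis elegans X chromosome, the positions in pre-mRNAs to which a spliced leader is joined. They were taken from the deposited table of splice sites as every row on either strand of X that was classed as a gene and as a trans site, without use of read counts. The rule gave 2467 sites in 1991 genes, of 19102 trans sites in 13647 genes and of 69542 sites of all kinds. X thus carried 12.9% of the trans sites.

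In nematode trans-splicing, a short leader is cut from a small donor RNA and placed at the 5′ end of the message, next to the start codon. The leader SL1 mostly goes to first genes of transcription units, while SL2 mostly goes to downstream genes of operons, clusters that are transcribed as a single precursor. As background on the chromosome, X is largely silent in much of the worm's germline, few germline genes lie on it, and a dosage compensation complex lowers its expression in hermaphrodite somatic cells.

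The study placed a sequence tag on a leader RNA and drove it from promoters of chosen tissues, so that tagged messages could be fished out of whole-animal RNA with a probe against the tag. Muscle RNA came from worms carrying the tagged leader SL1(G16C) under the myo-3 promoter, myo-3 being a myosin heavy chain gene of body wall muscle. It was taken from L1 larvae hatched overnight without food (1 library), fed L2 larvae (1), dauers recovered from liquid culture (2), young adults on adult day 1 (2) and adults on day 12 that had been kept on 400 µM fluorodeoxyuridine (2). Neuron RNA came from worms with SL1(G16C) under the pan-neuronal rgef-1 promoter, as day 1 young adults (2 libraries) and as day 12 adults on the same drug dose (2). A further muscle library from a mixed-stage population (1) carried the tagged SL2(T5A) under the myo-3 promoter. The libraries against which most values are set came from mixed-stage worms with SL1(G16C) under the U2-3 promoter, labelled multiple tissues (2). All worms were grown at 20 °C. The design text calls the replicates biological. Against multiple tissues, tissue and stage differ together, and between day 12 and young adults, age and drug differ together, so neither pair can be told apart. These are bulk samples, in which fewer cells of a type and less RNA per cell cannot be told apart.

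Reads at trans sites of all chromosomes numbered 464359 to 9587967 in the SL1-tag muscle libraries, 57104 to 282180 in neurons and 2196328 to 3636558 in multiple tissues. The labelled tissues matched their markers: a sarcomere list of 26 genes took 1.21 to 7.54% of trans reads in muscle, 0.231 to 0.371% in neurons and 0.518 to 0.538% in multiple tissues. A list of 39 synaptic and pan-neuronal genes took 0.0825 to 0.439% in muscle, 2.06 to 3.11% in neurons and 0.0588 to 0.0602% in multiple tissues. A germline and oocyte list of 42 genes, of which meg-1 alone lies on X, took 0.0275 to 0.144% in muscle, 0.130 to 0.276% in neurons and 2.46 to 2.49% in multiple tissues. Reads were found for 6 to 30, 4 to 16 and 40 to 41 of these germline genes. Cytosolic ribosomal protein genes, 2 of 77 on X, took 17.1 to 36.5% in muscle, 3.19 to 3.89% in neurons and 35.1 to 36.3% in multiple tissues.

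X sites took a share of trans reads in muscle and neurons several times that in multiple tissues. In muscle the share was 10.2% in L1 larvae, 7.62% in L2 larvae, 7.62% and 9.01% in dauers, 8.90% and 8.64% in young adults and 11.4% and 9.61% on day 12. In neurons it was 10.1% and 9.86% in young adults and 13.5% and 14.1% on day 12. In multiple tissues it was 1.38% and 1.36%. Every muscle and neuron library lay above both multiple-tissue libraries, with no overlap. The lowest muscle library was 5.53 times and the lowest neuron library 7.16 times the higher of these 2.

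The spread between replicates was small beside that gap. Group means were 8.32 ± 0.98% in dauer muscle, 8.77 ± 0.19% in young adult muscle, 10.5 ± 1.25% in day 12 muscle, 9.95 ± 0.14% in young adult neurons, 13.8 ± 0.40% in day 12 neurons and 1.37 ± 0.01% in multiple tissues (SD, n = 2 each). Between tissues of the same age, young adult muscle lay below young adult neurons, and day 12 muscle below day 12 neurons, without overlap. That order depended on the germline-list and ribosomal protein genes. Without them young adult muscle, at 11.96% and 11.70%, lay above young adult neurons, at 10.39% and 10.22%, and the day 12 libraries overlapped, with 12.6% and 14.07% in muscle against 14.03% and 14.6% in neurons. Day 12 libraries lay above young adult libraries in each tissue, 9.61 and 11.4% against 8.64 and 8.90% in muscle, and 13.5 and 14.1% against 9.86 and 10.1% in neurons. With all sites of the table in place of trans sites, the neuron libraries overlapped, at 13.07% and 13.86% on day 12 against 13.09% and 13.42% in young adults. Wilson 95% intervals, which cover counting error only since reads had no molecular identifiers, ran from 8.85 to 8.96% in the first young adult muscle library, from 13.3 to 13.8% in the shallowest neuron library and from 1.36 to 1.39% in the first multiple-tissue library. No p-value is given for the share, which sums over members chosen with earlier results known.

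**Figure D1:**
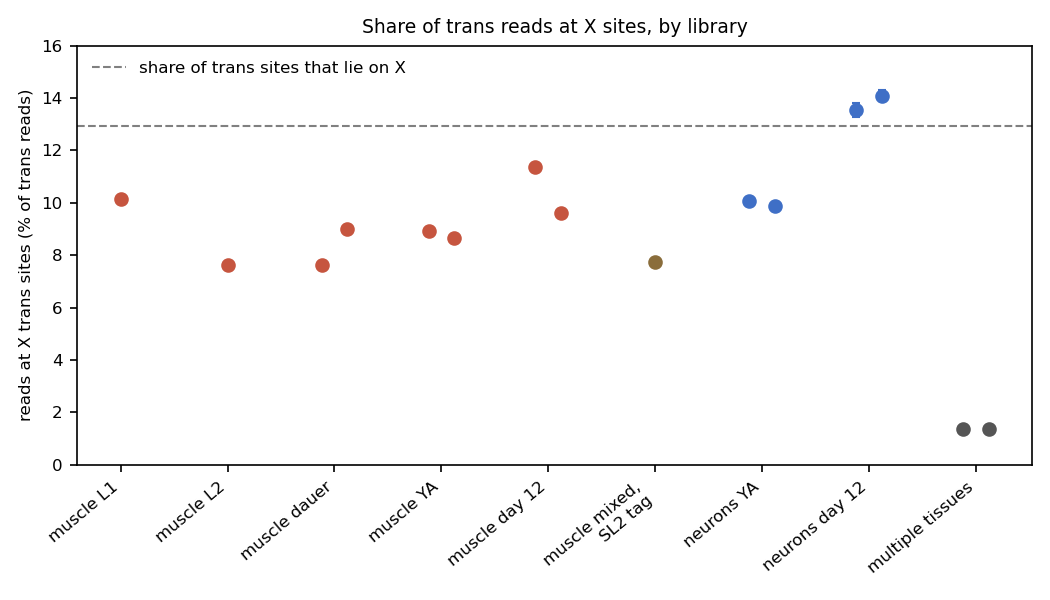
Share of trans reads at X sites in percent (vertical axis) for each library (points, Wilson 95% intervals as bars, mostly smaller than the points), by group along the horizontal axis; the dashed line marks the 12.9% of trans sites that lie on X. Muscle libraries sit between 7.62 and 11.4%, neurons between 9.86 and 14.1%, and both multiple-tissue libraries near 1.37%.

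X had the lowest share of reads of all chromosomes in every group, and the gap was widest in multiple tissues. There, chromosome I took 25.4%, II 16.2%, III 22.1%, IV 19.6% and V 15.5%, beside 1.37% for X. The germline list and the ribosomal proteins, both nearly absent from X, differed in level between the groups, and their part in the X share was not tested beyond leaving them out. Without both groups of genes, a choice made after seeing the data, the X share was 8.79 to 14.1% in muscle, 10.2 to 14.6% in neurons and 2.05% in each multiple-tissue library. Without the 10 leading sites of each library it was 7.56 to 12.3% in muscle, 11.8 to 14.3% in neurons and 1.50 to 1.52% in multiple tissues.

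The gap also held when each site counted once, but was smaller. Of all trans sites with at least 1 read, X made up 11 to 15.0% in muscle, 13.7 to 15.0% in neurons and 9.69 to 10.3% in multiple tissues. With every library thinned to 57104 reads, the shares were 9.57 to 14.7%, 13.4 to 15.0% and 5.81 to 6.41%. Among sites with at least 10 of the thinned reads, X made up 7.21 to 12.7% in muscle, 13.3 to 14% in neurons and 1.2 to 1.49% in multiple tissues. Reads were thus found at many X sites in multiple tissues, mostly few per site. On the scale of log2(CPM + 1), CPM being counts per 1000000 trans reads, averaged over all sites, X sites reached 1.34 and 1.33 in young adult neurons, against 1.25 and 1.27 for sites of other chromosomes. X sites also lay above other sites in the other neuron libraries and in both day 12 muscle libraries. In the other 6 SL1-tag muscle libraries they lay below, as in young adults, with 1.21 and 1.196 for X sites against 1.59 and 1.60 for other sites. In multiple tissues X sites reached 0.90 in both libraries, against 1.87 and 1.86 for other sites.

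By tissue, 703 X sites had reads in muscle, neurons and multiple tissues, 303 in muscle and neurons, 247 in muscle and multiple tissues, and 73 in neurons and multiple tissues. Reads in a single tissue were seen at 283 sites for muscle, 390 for neurons and 162 for multiple tissues. A further 305 sites had reads in no library used, and 1 site only in the SL2-tag library. These counts were not corrected for depth, which was lowest in neurons.

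A few sites took much of the X total in muscle of L1 larvae and young adults. The fewest X sites that held 50% of X reads numbered 10 in L1 larvae, 16 in L2 larvae, 30 and 18 in dauers, 10 and 10 in young adults, and 39 and 18 on day 12. In neurons they numbered 28 and 25 in young adults and 38 and 43 on day 12, and in multiple tissues 34 and 34. The top X site alone took 14.1% and 14% of X reads in young adult muscle, 13.7 to 19.5% in the neuron libraries, and 4.92% and 5.39% in multiple tissues.

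**Figure D2:**
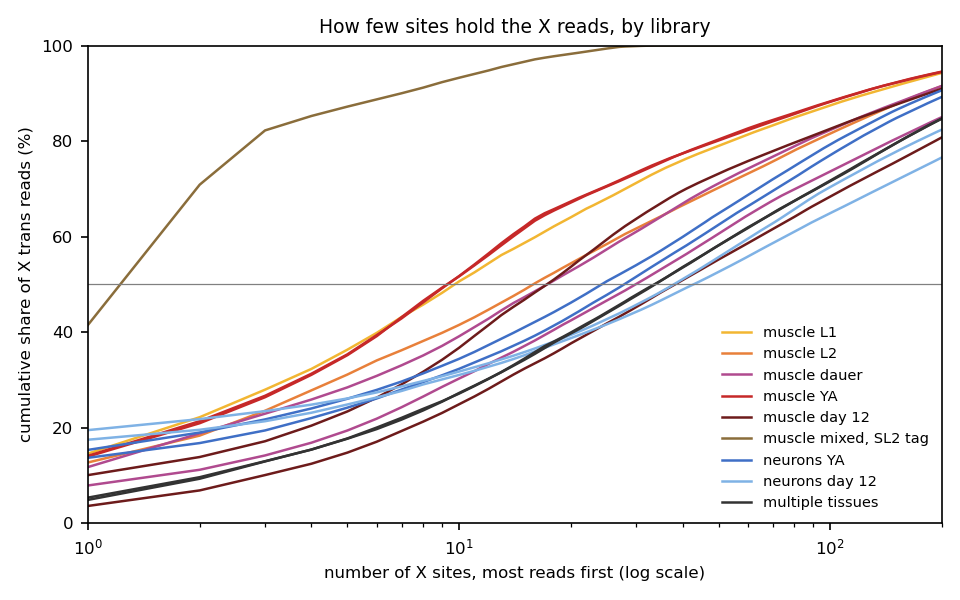
Cumulative share of X trans reads in percent (vertical axis) against the number of X sites taken in order of reads (horizontal axis, log scale), 1 line per library coloured by group. The SL2-tag library passes 50% with 2 sites, young adult muscle with 10, and multiple tissues with 34.

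In muscle the leading X site was that of mlc-2, a myosin regulatory light chain, with 9.89% of X reads averaged over the 5 SL1-tag muscle groups. Next came ttr-6 (transthyretin-related) with 4.01%, mup-2 (troponin T) with 3.91%, rpl-11.2 with 3.61%, ftt-2 with 2.95%, tni-1 and unc-27 (troponin I genes) with 2.70% and 2.30%, and dim-1 (an immunoglobulin-domain protein of the muscle attachment region) with 2.06%. Together these 8 held 31.4% of X reads in muscle. The order differed by stage: in dauers mlc-2 held 1.38% of X reads, beside 7.53% for ttr-6 and 7.49% for tts-1, a non-coding RNA. In neurons, ZC449.4 held 16.5%, followed by F26A10.1 (now nlp-61) with 2.22%, F11C7.6 with 2.12%, F38E9.6 with 2.02%, C24A3.2 with 1.57%, F39H12.3 with 1.38%, T14G8.4 with 1.21% and emre-1 (a regulator of the mitochondrial calcium uniporter) with 1.15%.

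In multiple tissues the leading X site belonged to rpl-11.2, a protein of the large ribosomal subunit, with 5.16% of X reads. It was followed by T23F2.5 with 4.35%, C07D8.6 with 3.49%, got-2.2 (an aspartate aminotransferase) with 2.46%, ftt-2 (a 14-3-3 protein) with 2.28%, spp-5 and spp-14 (saposin-like proteins) with 2.17% and 1.86%, and F20D1.1, now named flwr-1, with 1.92%. Together these 8 sites held 23.7% of X reads there. The leading sites of multiple tissues shared rpl-11.2 and ftt-2 with those of muscle and none with those of neurons.

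**Figure D3:**
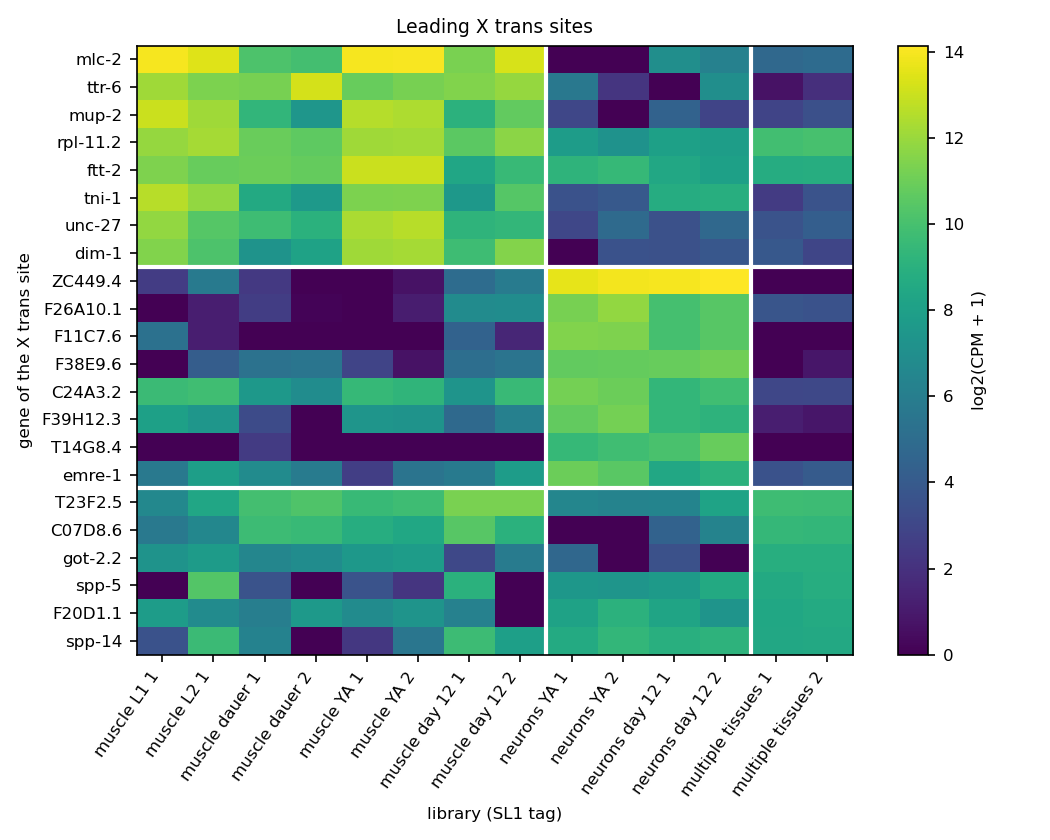
Level of the leading X trans sites as log2(CPM + 1) (colour) in each SL1-tag library (columns: muscle, neurons, multiple tissues), with rows grouped into the leading sites of muscle, of neurons and of multiple tissues. The troponin and myosin light chain rows are high in the muscle columns, ZC449.4 in the 4 neuron columns, and rpl-11.2 and ftt-2 have reads in all columns. The tni-1 row is also raised in the day 12 neuron columns, at 437 and 461 CPM.

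Levels below are CPM after scaling by the trimmed mean of M-values (TMM). They are levels of tagged, spliced reads at a site, with no transcript length to divide by, and are compared between libraries, not between genes. Tests came from a single edgeR quasi-likelihood fit over all chromosomes, and a site is called where its Benjamini-Hochberg adjusted p is under 0.05. Of the 2467 X sites 1324 passed the filter on low counts. Because a site could pass through the group where it was high, counts of called members are a description. Changes are relative to the TMM scaling. Size factors of DESeq2 in its place moved the median log2 fold change of sites read in both groups by 0.062, 0.70, 0.18 and 0.12 in muscle of young adults, day 12, dauers and larvae over multiple tissues. They moved it by 1.196 and 1.45 in neurons of young adults and day 12 over multiple tissues, by −1.14 for young adult muscle over young adult neurons, and by 0.62 and 0.26 for day 12 over young adults in muscle and in neurons.

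In young adult muscle, contractile genes were prominent among the X sites that stood above multiple tissues. The mlc-2 site (X, base 17456586, minus strand, 19 bases before the start codon) had 15952 and 16354 CPM in young adult muscle, against 26.6 and 30.1 CPM in multiple tissues. It rose by 9.15 ± 0.78 on the log2 scale (SE, adjusted p = 0.000599). The reads of mlc-2 are uncertain in 1 respect: its neighbour mlc-1 is a near-identical copy, whose own site had 13 reads in the L1 library and 0 in all others.

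The troponin genes, whose products set the calcium control of contraction, had the same direction. The mup-2 site (X, base 6410227, minus strand) had 5996 and 5487 CPM in young adult muscle, against 6.35 and 9.89 CPM in multiple tissues, a log2 fold change of 9.44 ± 1.10 (adjusted p = 0.00147). The tni-1 site (X, base 11377470, minus strand) had 2587 and 2759 CPM, against 4.44 and 11.1 CPM in multiple tissues. It was also called higher in day 12 neurons over multiple tissues, at 437 and 461 CPM. At this site day 12 muscle had 188 and 1351 CPM, and dauer muscle 384 and 195 CPM. The tnt-2 site (troponin T; X, base 8723550, minus strand) had 2867 and 2519 CPM, against 3.81 and 3.56 CPM in multiple tissues. The unc-27 site (X, base 8789456, plus strand, directly at the start codon) had 5215 and 6360.1 CPM, against 11.4 and 17.4 CPM. All 4 troponin sites rose, with no overlap between the groups.

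Over the X sites, 69 were called higher and 1 lower in muscle of young adults, set against multiple tissues. These were 5.29% of those tested, beside 3.92% of all trans sites tested. By direction, 3.06% of all tested sites were higher and 0.86% lower. Leaving out any 1 of the 4 libraries left 40 to 45 X calls. Of the sarcomere list, 8 genes lay on X with 10 sites, of which 6 were tested. Of these, 5 rose, those of tni-1, mlc-2, mup-2, tnt-2 and unc-27, with a list median of 8.89 on the log2 scale beside 0.00 over all tested sites. The other, unc-78, an actin-turnover gene, had 101 and 106 CPM in young adult muscle, against 8.25 and 8.31 CPM in multiple tissues, and did not pass. The site of myo-2, a pharyngeal myosin heavy chain, had 0 reads in every library.

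Genes that anchor the sarcomere to the cell edge moved in the same direction. Of 5 such genes on X, 4 had a site that rose, dim-1, pfn-3, unc-96 and unc-97. The 6 tested sites of the list had a median of 7.43 as fitted. With sites at 0 set to their bounds, and sites that gave no bound left out, the median was 8.14. The dim-1 site had 4571 and 4807 CPM in young adult muscle, against 14 and 6.73 CPM in multiple tissues (log2 fold change 8.83 ± 1.06, adjusted p = 0.00166). The pfn-3 site, of a profilin, had 2748 and 2690.5 CPM, against 2.54 and 3.56 CPM (9.75 ± 0.93, adjusted p = 0.000599). The same pfn-3 site was also called higher in day 12 neurons, at 31.2 and 125 CPM. The unc-96 site, of an M-line protein, had 153 and 102 CPM, against 0 in both multiple-tissue libraries, at least 174-fold higher by a floor of 3 counts over the group (adjusted p = 0.0494). The unc-96 call was lost without any 1 of the 4 libraries. The unc-97 site, of a LIM-domain attachment protein, had 335 and 458 CPM, against 5.71 and 6.33 CPM (adjusted p = 0.0273).

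Other X sites that rose in young adult muscle came from varied families. The site of ttr-6, a transthyretin-related gene (X, base 6597119, minus strand), had 1838 and 2395 CPM, against 0.635 and 2.77 CPM in multiple tissues (log2 fold change 10.13 ± 1.68, adjusted p = 0.00923). The M02D8.1 site, now named zig-12 for its immunoglobulin domains, had 3342 and 3236 CPM, against 3.17 and 4.75 CPM (9.65 ± 1.32, adjusted p = 0.00493). The site of csq-1, calsequestrin, a calcium buffer of the muscle reticulum, had 373 and 557 CPM, against 3.17 and 1.98 CPM (7.48 ± 1.02, adjusted p = 0.00498). The ftt-2 site had 8183 and 8167 CPM, against 436 and 447 CPM (4.21 ± 0.45, adjusted p = 0.000986). The rpl-11.2 site had 4552 and 4665 CPM, against 944 and 1054 CPM (2.21 ± 0.42, adjusted p = 0.0168). These sites separated the groups fully. Both glyceraldehyde phosphate dehydrogenase genes of X also rose: gpd-3 had 3944 and 4652 CPM, against 41.2 and 34 CPM, and gpd-2 had 603 and 638 CPM, against 27.3 and 23 CPM. The pair is near-identical, so the split of reads between gpd-2 and gpd-3 is uncertain.

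**Figure D4:**
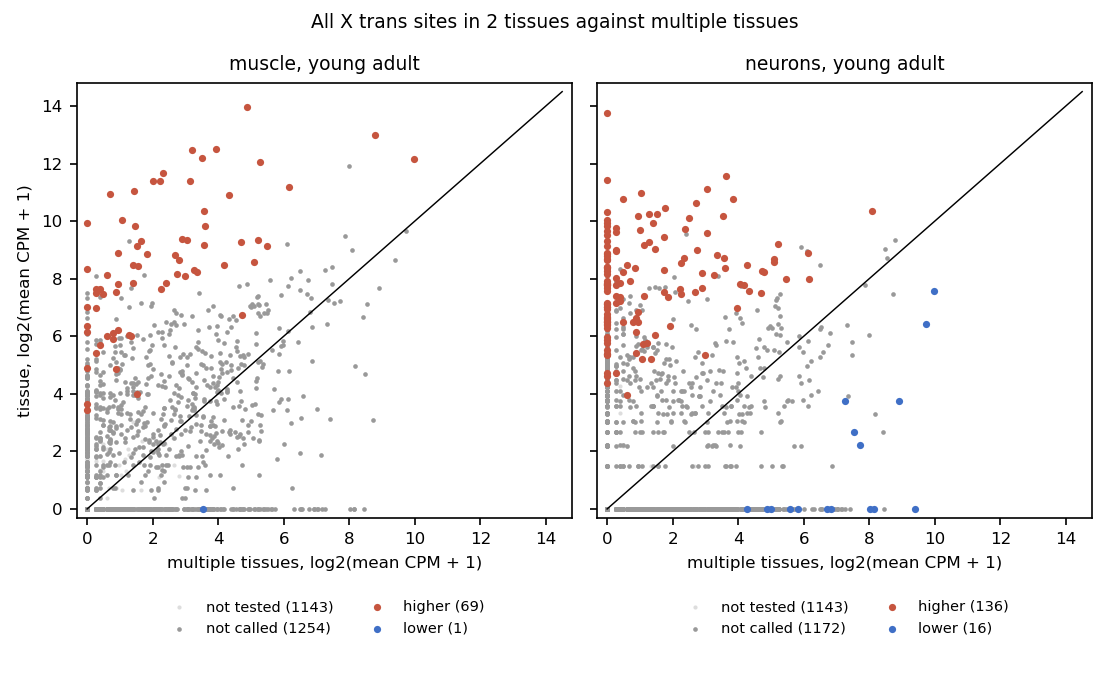
Mean level of every X trans site as log2(mean CPM + 1) in muscle of young adults (left panel, vertical axis) and young adult neurons (right panel, vertical axis) against multiple tissues (horizontal axis); points are sites, coloured by call, and the line marks equality. Called sites lie mostly above the line, 69 higher and 1 lower in muscle and 136 higher and 16 lower in neurons.

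The other muscle stages were set against the same 2 multiple-tissue libraries, so the comparisons are not independent. In day 12 muscle 85 X sites were higher and 4 lower, 6.72% of those tested beside 7.57% of all tested sites. By direction the background was 3.94% higher and 3.63% lower. In dauer muscle 86 were higher and 7 lower, 7.02% beside 6.17%, with 4.37% of all tested sites higher and 1.8% lower. In larval muscle, the mean of the L1 and L2 libraries, 71 were higher and 7 lower, 5.89% beside 5.61%, with 2.95% higher and 2.66% lower. The larval test assumes that each lone library varies like the other groups. Without a multiple-tissue library the called X sites numbered 44 to 49 for day 12, 45 to 48 for dauers and 48 to 51 for larvae, and without dauer replicate 1 they numbered 143.

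The same 5 sarcomere sites rose in each of these 3 stages, with list medians of 5.999 on day 12, 5.21 in dauers and 8.08 in larvae, beside −0.25, 0.00 and −1.48 over all tested sites. The levels differed widely between stages. The mlc-2 site had 16187 CPM in L1 larvae, 11152 CPM in L2 larvae, 1167 and 973 CPM in dauers, 15952 and 16354 CPM in young adults, and 2537 and 10200.1 CPM on day 12. The dauer libraries were the lowest for mlc-2, and the day 12 libraries lay far apart. The mup-2 site had 8438 CPM in L1 larvae, 4548 CPM in L2 larvae, 628 and 175 CPM in dauers, 5996 and 5487 CPM in young adults, and 551 and 1724 CPM on day 12.

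Dauer muscle also had X sites above multiple tissues, some of them high in other muscle stages too. The site of tts-1, a non-coding RNA known to be abundant in dauers and long-lived worms (X, base 1504624, minus strand), had 548 CPM in L1 larvae, 333 CPM in L2 larvae, 5978 and 5687 CPM in dauers, 107 and 103 CPM in young adults, and 1117 and 2124 CPM on day 12. In multiple tissues tts-1 had 31.1 and 19.4 CPM, and dauer muscle stood above them by 7.85 ± 0.55 on the log2 scale (adjusted p = 0.000138). The site of T21F4.1, now named argn-1 after agrin, a basement membrane proteoglycan, had 789.9 and 1405 CPM in dauers and 72.4 and 21.2 CPM on day 12, but 0 in larval and young adult muscle. In multiple tissues T21F4.1 had 2.54 and 1.58 CPM, and it rose in dauers by 9.03 ± 1.13 (adjusted p = 0.00436). The ttr-6 site had 4456 CPM in L1 larvae, 2589.9 CPM in L2 larvae, 2475 and 9515 CPM in dauers, 1838 and 2395 CPM in young adults, and 2847 and 3823 CPM on day 12. In dauers this was a log2 fold change of 11.63 ± 1.76 over multiple tissues (adjusted p = 0.00502). The site of sup-12, a muscle splicing regulator, had 390.2 and 274 CPM in dauers, with 227 and 325 CPM in young adults and 260.0 and 316 CPM on day 12, against 0.635 and 0.396 CPM in multiple tissues (9.19 ± 1.48, adjusted p = 0.00649). The globin gene glb-20 had 148 and 72.7 CPM in dauers, against 0 in both multiple-tissue libraries, at least 151-fold higher (adjusted p = 0.0337). The glb-20 call was lost without either multiple-tissue library.

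Other X sites changed at 1 or more muscle stages, and some fell. On day 12, ncs-1, a neuronal calcium sensor, had 76.8 and 73.0 CPM in muscle, against 0 in both multiple-tissue libraries, at least 102-fold higher (adjusted p = 0.0442). The ncs-1 call was lost without any 1 of the 4 libraries. The mek-1 site, of a MAP kinase kinase, had 4.43 and 8.11 CPM in day 12 muscle, against 161 and 158 CPM in multiple tissues, and fell by 4.62 on the log2 scale (SE 0.81, adjusted p = 0.00924). Larval muscle had no reads at tth-1, a thymosin beta that binds actin, against 60.3 and 63.3 CPM in multiple tissues, at least 46.0-fold lower (adjusted p = 0.0028). The profilin site of pfn-2 had 3.08 CPM in L1 and 0 in L2 larvae, against 33 and 39.97 CPM in multiple tissues (adjusted p = 0.00681), a call lost without the L2 library. The same pfn-2 site had 307 and 404 CPM in dauers, 97.1 and 127 CPM in young adults and 417 and 315 CPM on day 12, above multiple tissues in dauers (adjusted p = 0.0246) and on day 12 (adjusted p = 0.0229). Larval muscle also rose at sto-2 (a stomatin), lact-1 (a beta-lactamase-like protein), spp-9 and mec-5 (a collagen needed for touch), each at 0 in both multiple-tissue libraries and at least 203-, 224-, 195- and 238-fold higher. The sto-2 site had 76.9 CPM in L1 and 220 CPM in L2 larval muscle. In neurons sto-2 had 243 and 199 CPM in young adults and 93.6 and 145 CPM on day 12. The larval mec-5 call was lost without either multiple-tissue library, and that of spp-9 also without the L2 library. The lact-1 and spp-9 sites were also called higher in day 12 muscle, and mec-5 in young adult muscle. Each of these further calls was lost without at least 1 of the libraries compared.

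In neurons the X sites above multiple tissues were led by genes that carry only a sequence name, together with peptide-signalling genes. The ZC449.4 site (X, base 5029407, minus strand) had 12492 and 15507 CPM in young adult neurons and 15683 and 18217 CPM on day 12, against 0 in both multiple-tissue libraries. It was at least 19145-fold higher in young adult neurons (adjusted p = 0.00141) and at least 23179.9-fold on day 12 (adjusted p = 0.00156). In the muscle libraries the ZC449.4 site lay between 0 and 59.3 CPM. The F11C7.6 site had 2809.6 and 2771 CPM in young adult neurons and 1019 and 1417 CPM on day 12, against 0 in multiple tissues, at least 3816-fold and 1666-fold higher. The F38E9.6 site had 1756 and 1766 CPM in young adult neurons and 1851 and 2168 CPM on day 12, against 0 and 0.792 CPM, a log2 fold change of 11.69 ± 1.21 in young adults (adjusted p = 0.000313). F26A10.1 had 2406 and 3666 CPM in young adult neurons, against 12.1 and 10.7 CPM (8.05 ± 1.39, adjusted p = 0.00524).

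Over the X sites, 136 were called higher and 16 lower in young adult neurons, 11.5% of those tested beside 13.5% of all tested sites. The background by direction was 6.18% higher and 7.35% lower. On day 12, 123 were higher and 6 lower, 9.74% beside 9.76%, with 5.56% of all tested sites higher and 4.2% lower. Leaving out any 1 of the 4 libraries left 77 to 89 calls in young adults and 40 to 71 on day 12. Size factors in place of TMM gave 169 higher and 6 lower X sites and 182 higher and 0 lower.

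FMRFamide-like neuropeptide genes were the X list with the most called sites in neurons. Of 12 such genes on X, with 17 sites and 13 tested, 7 sites rose in young adult neurons, those of flp-2, flp-11, flp-12, flp-18, flp-20, flp-26 and flp-28. The list median was 7.55 on the log2 scale with sites at 0 set to their bounds and sites at 0 in both groups left out. As fitted over the 13 tested sites it was 8.48, beside −2.103 over all tested sites. The flp-28 site had 875 and 1443 CPM in young adult neurons and 728 and 804 CPM on day 12, against 12.1 and 9.10 CPM in multiple tissues (6.77 ± 0.85 in young adults, adjusted p = 0.0014). The flp-2 site had 1103 and 1715 CPM in young adults, against 4.44 and 0.396 CPM (9.24 ± 2.05, adjusted p = 0.0195), and flp-11 had 399.8 and 616 CPM, against 0 and 0.396 CPM (10.71 ± 1.50, adjusted p = 0.00354). The flp-7 site had 182 and 189 CPM, against 3.17 and 3.17 CPM, and did not pass. On day 12, 6 sites of the list rose, with a median of 7.12 at the bounds and 7.89 as fitted, beside −0.71 over all tested sites. Over all chromosomes, X included, 16 of 33 tested FMRFamide-like sites rose in young adult neurons and 15 of 33 on day 12.

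Of 9 genes for neuropeptide-like proteins on X, 9 sites were tested, and 3 rose in each age, nlp-1, nlp-7 and nlp-14 in young adults and nlp-3, nlp-7 and nlp-14 on day 12. Over all chromosomes, X included, 15 of 34 tested sites of this list rose at each age. The nlp-7 site had 1289 and 1871 CPM in young adult neurons, against 5.08 and 5.94 CPM in multiple tissues (8.14 ± 1.71, adjusted p = 0.0156). The nlp-6 site had 668 and 830 CPM, against 3.81 and 4.75 CPM, and did not pass. Outside the list, the peptide gene capa-1 had 967 and 1117 CPM in young adult neurons, against 0 in both multiple-tissue libraries, at least 1425-fold higher (adjusted p = 0.00801). The sites of cpd-2 (a carboxypeptidase) and sto-6 (a stomatin) were at 0 in multiple tissues and at least 875- and 650.2-fold higher in young adult neurons. H22K11.3, now named idpp-6, had 375 and 548 CPM in young adult neurons and 1039.97 and 1852 CPM on day 12, against 0 in multiple tissues, at least 631- and 1977-fold higher. Its calls at each age were lost without either neuron library of that age. The lact-1 site had 910.4 and 928 CPM in young adult neurons and 437 and 837 CPM on day 12, against 0, at least 1257- and 871-fold higher. On day 12, dop-1, a dopamine receptor, had 385 and 435 CPM, and irk-1, an inward rectifier potassium channel, had 478 and 316 CPM, each against 0. The day 12 calls of capa-1, dop-1 and irk-1 were lost without either day 12 library, and the young adult call of cpd-2 without either young adult library.

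**Figure D5:**
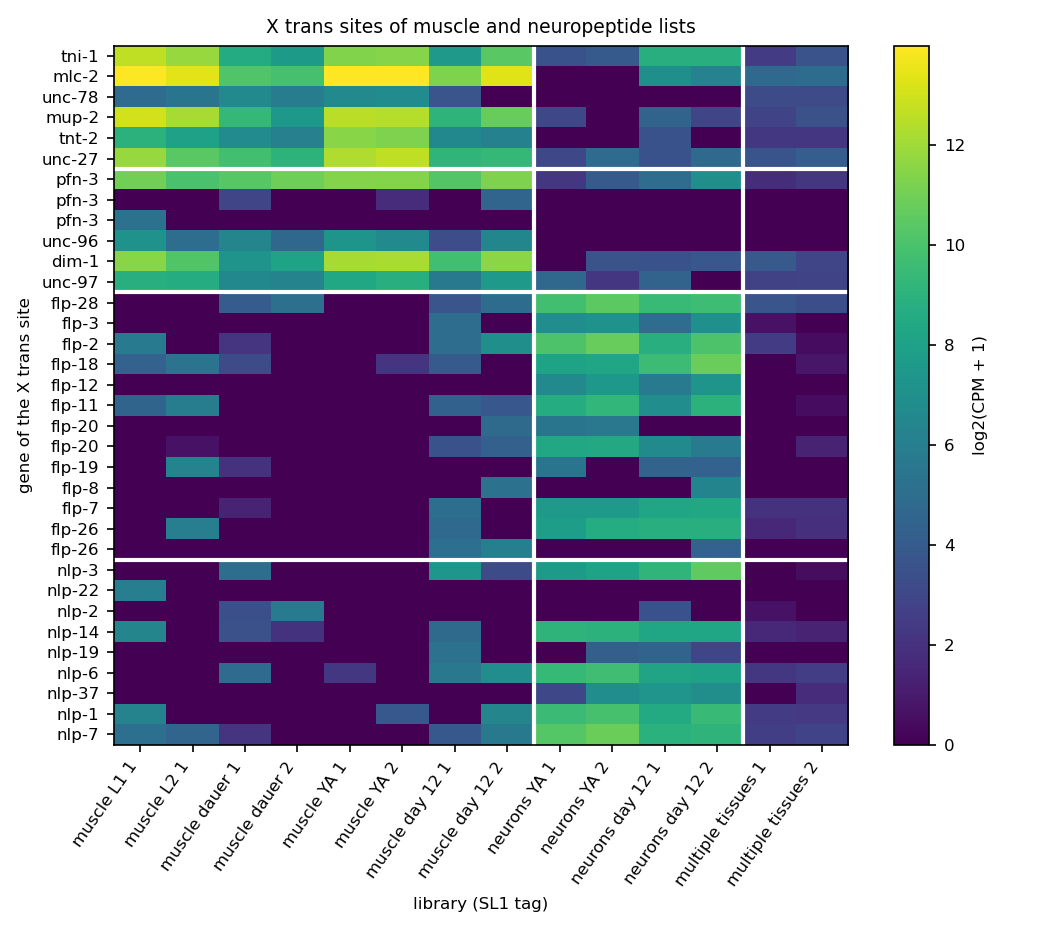
Level of every tested X site of the sarcomere, attachment, FMRFamide-like and neuropeptide-like lists as log2(CPM + 1) (colour) in each SL1-tag library (columns), with white lines between lists and tissues. Of the 6 sarcomere rows at the top, those of mlc-2, mup-2, tni-1 and unc-27 are high in the muscle columns. The tnt-2 row is highest in young adult muscle. In dauers it is near the unc-78 row, at 107 and 68.4 CPM against 105 and 58.2 CPM. Most of the neuropeptide rows below are high in the 4 neuron columns.

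Fewer X sites fell in neurons. The rpl-11.2 site had 228 and 149 CPM in young adult neurons and 260.0 and 231 CPM on day 12, against 944 and 1054 CPM in multiple tissues, and fell by 2.41 on the log2 scale in young adults (SE 0.43, adjusted p = 0.00571). Ribosomal protein genes as a whole were low in neurons, 71 of 92 tested sites of all chromosomes being called lower in young adults. C07D8.6 had no reads in young adult neurons, against 696 and 654 CPM in multiple tissues, at least 125-fold lower (adjusted p = 0.000873). The acyl-CoA dehydrogenase gene acdh-7 had 0 in all 4 neuron libraries, against 115 and 94.2 CPM, at least 19.4-fold lower in young adults (adjusted p = 0.0078). The complex I gene gas-1 had 0 and 7.25 CPM in young adult neurons, against 237 and 185 CPM, a call (adjusted p = 0.0472) lost without any 1 library and with size factors. The aakg-2 site, of an AMP-kinase subunit, had 0 in both young adult neuron libraries, against 60.9 and 51.1 CPM, at least 10.4-fold lower (adjusted p = 0.0214), also lost without any 1 library. The got-2.2 site had 25 and 0 CPM in young adult neurons and 10.4 and 0 CPM on day 12, against 475 and 477 CPM. The calls of got-2.2 (adjusted p = 0.0428 and 0.0399) were lost with size factors, the first also without young adult replicate 2 and the second without either day 12 library.

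Several X sites were high in both tissues. The hsp-25 site, of a small heat shock protein, had 672 CPM in L1 larvae, 339 CPM in L2 larvae, 154 and 45.4 CPM in dauers, 290.0 and 336 CPM in young adults and 222 and 229.7 CPM on day 12 in muscle. In neurons hsp-25 had 303 and 261 CPM in young adults and 562 and 501 CPM on day 12, against 8.25 and 9.10 CPM in multiple tissues. It rose in each of the 6 comparisons, all of which share the multiple-tissue libraries. C24A3.2 had 713 and 601 CPM in young adult muscle and 2359.8 and 2049 CPM in young adult neurons, against 6.98 and 7.52 CPM, and also rose in all 6.

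Set directly against each other, young adult muscle and young adult neurons differed at 126 X sites, 62 higher and 64 lower in muscle. That is 9.52% of tested X sites beside 10.8% of all tested sites, 7.19% of which were higher and 3.65% lower. With size factors in place of TMM, 149 X sites were called, of which 45 were higher and the rest lower in muscle. Leaving out any 1 of the 4 libraries left 40 to 70 calls. The mlc-2 site had 15952 and 16354 CPM in muscle, against 0 in both neuron libraries, at least 2993-fold higher (adjusted p = 0.000143). The tnt-2 site was likewise at 0 in young adult neurons, at least 499-fold higher in muscle. The transthyretin-related gene ttr-36 had 563 and 708 CPM in muscle, against 0, at least 118-fold higher (adjusted p = 0.0015). The rpl-11.2 site was higher in muscle by 4.61 ± 0.47 (adjusted p = 0.00034). The flp-28 site had 0 in both muscle libraries, against 875 and 1443 CPM in neurons, at least 956-fold lower in muscle (adjusted p = 0.000359). C54D2.2, now named nlp-101, had 0 in muscle, against 478 and 1059 CPM, at least 634-fold lower (adjusted p = 0.0102), a call lost without either muscle library. The same holds for nlp-7 and flp-2, at least 1303- and 1162-fold lower in muscle.

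Between ages, few X sites passed. In muscle, 9 of 1324 X sites differed between day 12 and young adults, 4 higher and 5 lower, 0.68% beside 0.73% of all tested sites, of which 0.31% were higher and 0.42% lower. With size factors the split was 8 higher and 4 lower. Without either young adult library 0 X sites were called, without day 12 replicate 1 there were 9, and without day 12 replicate 2 there were 20. The tts-1 site had 1117 and 2124 CPM on day 12, against 107 and 103 CPM in young adults (3.94 ± 0.46, adjusted p = 0.00902). The other 3 that rose were at 0 in both young adult libraries: H05L03.3, now named nlp-49, had 34 and 188 CPM (adjusted p = 0.0417), flp-28 had 11.8 and 30.0 CPM (adjusted p = 0.0304) and T21F4.1 had 72.4 and 21.2 CPM (adjusted p = 0.0388). Against that floor they were at least 91.7-, 17.2- and 38.6-fold higher. Both peptide sites were higher in day 12 neurons, with 468 and 270 CPM for H05L03.3 and 728 and 804 CPM for flp-28. In multiple tissues flp-28 had 12.1 and 9.10 CPM, near its level in day 12 muscle.

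The X sites that fell on day 12 included contractile and translation genes. The ftt-2 site had 332 and 735 CPM on day 12, against 8183 and 8167 CPM in young adults (−3.94 ± 0.44, adjusted p = 0.00902). The site of eef-1A.2, an elongation factor, had 88.6 and 64.9 CPM, against 2436 and 2181 CPM (−4.91 ± 0.52, adjusted p = 0.00902). The tnt-2 site had 90.1 and 71.1 CPM, against 2867 and 2519 CPM (−5.06 ± 0.72, adjusted p = 0.0223), and unc-27 had 581 and 649 CPM, against 5215 and 6360.1 CPM (−3.23 ± 0.58, adjusted p = 0.0394). The unc-27 call was lost without any 1 of the 4 libraries and with size factors. In neurons, 0 X sites differed between ages by edgeR's test, beside 0.02% of all tested sites. There, 93 X sites had an unadjusted p under 0.05, and DESeq2's Wald test called 28.

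Several further lists gave few or no calls on X, the synaptic and pan-neuronal list among them. The germline gene meg-1 had 0 CPM in 9 of the 12 muscle and neuron libraries and at most 13.2 CPM in the others, against 118.7 and 144 CPM in multiple tissues, but its single tested site did not pass in any comparison (adjusted p = 0.158 for young adult muscle). Of 4 tested sites of sex determination and dosage compensation genes, fox-1, an RNA-binding X signal element, was called. It had 253 and 326 CPM in young adult neurons, against 4.44 and 8.31 CPM in multiple tissues (5.48 ± 1.10, adjusted p = 0.0104), and 204 and 33.7 CPM in day 12 muscle (adjusted p = 0.04). The site of xol-1, the switch gene of sex determination, had at most 10.4 CPM in muscle and neurons, against 4.44 and 3.96 CPM in multiple tissues, and did not pass. Of 15 tested nuclear hormone receptor sites on X, nhr-40 rose in day 12 muscle and no other was called. Neither of the 2 tested collagen sites, none of the 11 tested homeobox sites and none of the 7 tested synaptic sites were called in any of the 9 comparisons. The synaptic list is the one used as neuron markers. Over all chromosomes, 3 of its 34 tested sites were called higher in young adult neurons over multiple tissues. Vitellogenin genes had no trans site in the table.

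The SL2-tag muscle library gave a different set of X sites. X held 7.75% of its trans reads (Wilson 95% interval 7.72 to 7.79%, counting error only), within the range of the SL1-tag muscle libraries, but 34 of its 1037 detected sites lay on X, 3.28%. Thinned to 57104 reads, X made up 3.69% of detected sites, against 9.57 to 14.7% in SL1-tag muscle. The gpd-3 site, in the operon with gpd-2 (X, base 3113341, minus strand), held 41.5% of its X reads, 81172 reads. The rpl-25.1 site held 29.3%, 57353 reads, ttr-35 held 11.4%, 22191 reads, acdh-10 held 3.02%, 5901 reads, and gpd-2 held 1.96%, 3829 reads. All 5 genes belong to operons by the annotation, and together these sites held 87.2% of X reads. Operon genes took 96.6% of X reads in that library and 97.8% of reads on other chromosomes, while 79 of the 1991 X genes, 3.97%, lie in operons, against 16.4% of genes on other chromosomes. This group is 1 library, so it was not tested.

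Some X genes used different trans sites in different tissues. Between young adult muscle and young adult neurons, 5 of 17 X genes with at least 2 sufficiently read sites differed in site use, beside 12.4% of all genes tested (edgeR's splice test, Simes p adjusted over all genes). In aqp-7, an aquaporin, the upstream site (X, base 3025061, plus strand) took 0.196% and 0% of the gene's reads in muscle, against 51.3% and 58.9% in neurons (adjusted p = 0.00809). The rest lay at base 3025536, at the start codon. In fkh-9, a forkhead factor, the downstream site at base 3818488 took 0% in both muscle libraries, against 95.8% and 81.5% in neurons (adjusted p = 0.0122). In M60.4 the site at base 8236314 took 47.6% and 54.8% in muscle, against 0% and 1.59% in neurons (adjusted p = 0.0122). In snx-17, a sorting nexin, the site at base 13119215 took 14.3% and 3.85% in muscle, on 7 and 26 reads in all, against 70.2% and 83.1% in neurons (adjusted p = 0.029). The site of F49E2.5 at base 9543670 took 21% and 18.2% in muscle, against 0.787% and 0% in neurons (adjusted p = 0.0122). Without either muscle library no X gene was called, and without either neuron library 3 were.

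Against multiple tissues, 5 of 16 X genes differed in site use in young adult muscle, beside 38.5% of all genes tested. The genes were F13E6.1, mop-25.1 (an MO25 protein), F49E2.5, F08B12.4 and M60.4. In mop-25.1 the site at base 4012219 took 0% in both muscle libraries, against 90.5% and 72.1% in multiple tissues, on 19 and 31 reads (adjusted p = 0.00408). In F08B12.4 the site at base 11407730 took 75.2% and 84.5% in muscle, against 29.3% and 38.1% in multiple tissues (adjusted p = 0.0145). Without either multiple-tissue library 0 X genes were called, and without either young adult muscle library 5 and 3 were.

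By position, X sites resembled other trans sites in where they sat in the gene. Of sites in genes with an annotated start codon, the median distance to it was 13 bases on X and 12 bases elsewhere. Of these sites, 73.9% on X lay within 50 bases before it, against 71.9% elsewhere. A further 6.45% on X lay downstream of all annotated start codons of the gene, against 9.73% elsewhere. X genes more often had a single trans site, 81.3% of genes against 69.3%. Counting sites with at least 10 reads over the SL1-tag libraries, the shares were 91.3% of X genes against 84.1%. The genes with the most X trans sites were F15G9.1 with 7 and F47B10.8 with 6. Along the chromosome, 31.8% of X sites lay in the first 6 Mb, 38.2% between 6 and 12 Mb and 30.0% beyond. Young adult muscle drew 29.1%, 46.6% and 24.3% of its X reads from these stretches, and multiple tissues 32.9%, 35.8% and 31.4%. Young adult neurons drew 35.0%, 40.6% and 24.4%, and day 12 neurons 41.2%, 35.1% and 23.6%. In day 12 neurons the ZC449.4 site, which lies in the first stretch, alone held 18.5% of X reads. The share of that stretch in day 12 neurons thus rests in part on this site.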

How the data were processed

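The libraries hold tagged messages pulled down with a probe against the leader tag, amplified by polymerase chain reaction and sequenced as paired ends, per the labels' protocols. Reads were processed with Trimmomatic, TopHat2 and DESeq, per the submitters' processing notes, and the sources used here give no roles, versions or genome build. The authors deposited raw read counts per splice site and sample. Of the table's per-sample columns 3 match no sample and were not used. Sites were matched to WBcel235 (Ensembl 115) exon starts, where 90.6% of 32276 cis sites fell, and first bases are given 1-based on that assembly. A current gene symbol was found for 2371 X sites.

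Counts at the 19102 trans sites of the 14 SL1-tag libraries were fitted with edgeR 4.0.16 in R 4.3.3 (quasi-likelihood, 8 group means, TMM, filterByExpr), which tested 9996 sites with 6 residual degrees of freedom. Site use was tested with edgeR's diffSpliceDGE. The steps were tested on simulated data. DESeq2 1.42.0 was an alternative. Python 3.11.15 with pandas 2.3.3 and scipy 1.17.1 gave shares, thinning and intervals. Depth was 57104 to 9587967 trans reads per library, and intervals cover counting error only. The p-values of the main fit rest on a spread pooled over the groups with 2 libraries and moderated across sites. Groups of 1 library add no spread of their own.

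The members and lists were chosen with earlier results of these data known. Sites named are the leading 8 X sites of each SL1-tag tissue and 5 of the SL2-tag library; per comparison, the 5 largest changes each way among called X sites whose libraries do not overlap and whose mean log2 CPM in the higher group is at least 5 and whose gene has a symbol in the annotation beside its sequence name; up to 3 X sites per list by p; and 5 genes by site use. Sites of lists with few or no calls are mostly given as counts. The sites of unc-78, mlc-1, myo-2, flp-7, flp-12, flp-18, flp-26, nlp-1, nlp-6, F15G9.1 and F47B10.8 fall outside that rule and were named after their values were seen. The SL2-tag library is named for SL2(T5A) in its title and strain but for SL1 in its description, and was treated as SL2. No sequence is printed, as no genome was used here. A site that the naming rule selects in larval muscle is not reported here.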

Additional observations from a re-analysis of the deposited data

How the results depend on the processing

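None of the 59 named calls reversed under any alternative. Reversals among the other called sites were not counted. Called X sites are given in the order muscle of young adults, day 12, dauers and larvae, then neurons of young adults and day 12, each over multiple tissues, then young adult muscle over young adult neurons, and day 12 over young adults in muscle and in neurons. The main counts were 70, 89, 93, 78, 152, 129, 126, 9 and 0. DESeq2's Wald test called 168, 228, 210, 167, 270, 288, 224, 101 and 28. With no filter on low counts the first 6 counts were 125, 171, 164, 132, 232 and 212, and the ageing counts 69 and 17. With at least 50 counts in 2 libraries the muscle counts were 111, 146, 141 and 118, and 37 between ages. A fit of only the groups compared called 455, 310, 261, 486, 404, 360, 323, 0 and 42. All sites of the table in the fit gave 1 and 1 between ages, and size factors gave 1 in neurons between ages. Leaving out 1 library gave 40 to 45, 44 to 98, 45 to 143, 48 to 73, 77 to 89, 40 to 71, 40 to 70, 0 to 20 and 0 to 0. With the replicate number as a block, the counts between ages were 37 in muscle and 11 in neurons, and site use called 1 X gene between muscle and neurons and 2 between muscle and multiple tissues. Same-numbered libraries did not deviate together over all tested sites (r from −0.039 to 0.020). Many of these sites have few reads, where counting noise can hide a shared deviation, so this does not decide whether the numbers pair samples. Site use gave 0 to 3 and 0 to 5 X genes without 1 library, and 3 between muscle and multiple tissues at 20 reads or more.

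The mean X share differed by 7.70 percentage points between muscle and multiple tissues, 10.5 between neurons and multiple tissues and 2.81 between neurons and muscle. Without the germline list and ribosomal proteins, chosen after seeing the data, they were 9.81, 10.27 and 0.46, and the order of young adult muscle and neurons turned round. Without the day 12 libraries, also chosen then, the differences were 7.35, 8.59 and 1.24, and without 1 library 7.43 to 8.07, 10.4 to 10.7 and 2.45 to 3.08. For the X share of detected sites, 5.12, 7.92 and 2.80 points, the first 2 became 6.97 and 10.8 at 3 reads or more, and all became 7.49, 12.3 and 4.79 at 10 or more. Of 59 named calls 23 held without any 1 library, and 9 were lost with size factors. The larval and SL2-tag groups have 1 library per stage. The sequences at the acceptor sites were not analysed here.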
